A study of Mus musculus with 24 samples.

Results

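Matricellular proteins are secreted proteins that sit in the extracellular matrix and act on cells through receptors and growth factors, while carrying little of the mechanical load that collagens carry. The genes described here are 9 matricellular genes outside the CCN family: Thbs1, Thbs2, Thbs3, Tnc, Postn, Spp1, Mgp, Sparc and Sparcl1. They were picked by name and matched by Ensembl identifier. They are 9 of the 39017 gene identifiers in each count file, and all 9 were among the 14361 genes tested, which averaged 5 or more counts over the libraries.

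The cells were NIH 3T3, a line of mouse embryonic fibroblasts, in 24 RNA-Seq libraries of polyadenylated RNA, 3 for each of 8 groups. Every group had been stably transduced with a retroviral vector, selected with G418 and kept as a pooled line rather than as a single clone. Per the study's methods the triplicates were transduced separately. The empty vector lines (EV) and those expressing TAZ-CAMTA1, YAP-TFE3, TAZ4SA, YAP5SA or TFE3 were collected after 48 h at confluence, whereas the CAMTA1 lines and their own empty vector control (EVsub) were collected at sub-confluence. TAZ-CAMTA1 joins the N terminus of TAZ to the C terminus of CAMTA1, and YAP-TFE3 joins the N terminus of YAP to the C terminus of TFE3. TAZ4SA and YAP5SA are full-length TAZ and YAP in which the serines phosphorylated by the LATS kinases are replaced by alanine, so that the Hippo pathway does not hold them back. TFE3 and CAMTA1 are the full-length fusion partners. The comparisons ask which parts of a full-length protein's effect the fusion proteins share, and each expressed protein was set against the empty vector collected at the same density.

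TAZ and YAP are coactivators that bind DNA through TEAD transcription factors and respond to cell density, stiffness and attachment, so the extracellular matrix is both an input and an output of this pathway in fibroblasts. Thrombospondins bind calcium, matrix and several receptors, among them CD47 and CD36, and thrombospondin 1 can release active TGF-beta from its latent complex. Tenascin C and periostin are made in developing and healing tissue, osteopontin (Spp1) is a phosphorylated ligand of integrins and CD44, matrix Gla protein (Mgp) inhibits calcification, and SPARC binds collagen.

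Library totals ran from 16471181 to 30132586 counts. All 10 fibroblast markers examined, collagen genes among them, were detected in every group, with a summed level of 20236 to 54946 CPM per library (CPM, the usual depth-scaled count, is used throughout and rests on TMM-scaled library sizes). The marker lists of other cell types summed to far less than the fibroblast list. Of 8 myeloid markers 4 averaged 5 or more counts, and the list summed to 6.08 to 7.59 CPM in EV, 7.84 to 12.3 CPM in the other groups apart from TAZ4SA and YAP5SA, 20.2 to 71.1 CPM in TAZ4SA and 86.7 to 136 CPM in YAP5SA. The myeloid genes Adgre1 and Tyrobp had no count in any library and Ptprc did not exceed 0.176 CPM. The higher sums of TAZ4SA and YAP5SA lay in genes such as Cd68 (mean 3.18 CPM in EV, 40.6 in TAZ4SA and 66.9 in YAP5SA) and Csf1r (0.636, 5.41 and 40.0 CPM). Itgam was higher as well (0.0159, 1.32 and 1.13 CPM). Cd14 differed less (2.91, 3.53 and 3.20 CPM), and its highest mean was in TAZ-CAMTA1 (8.76 CPM). The endothelial list, with 4 of 6 genes averaging 5 or more counts, summed to 0.819 to 16.5 CPM. The epithelial list, with 2 of 6 genes at that average, summed to 0.310 to 9.25 CPM, and the muscle list, with 2 of 4, to 0.0442 to 9.33 CPM. The osteoblast and chondrocyte list, where only Runx2 and Sox9 of 8 reached that average, summed to 42.3 to 197 CPM. In EV, Sox9 averaged 128 CPM and Runx2 48.4 CPM.

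Coordinates are those of GRCm38 (mm10) in the GENCODE M21 annotation. Thbs1 lies at chr2:118111876-118127133 on the plus strand, Thbs2 at chr17:14665500-14694235 on the minus strand and Thbs3 at chr3:89215180-89226837 on the plus strand. Tnc lies at chr4:63959785-64047015 (minus), Postn at chr3:54361109-54391037 (plus), Mgp at chr6:136872435-136875823 (minus) and Sparc at chr11:55394500-55423183 (minus). Spp1 at chr5:104435118-104441050 (plus) and Sparcl1 at chr5:104079111-104113733 (minus) share one stretch of chromosome 5, 321.4 kb apart, with the 4 protein-coding genes Dspp, Dmp1, Ibsp and Mepe between them. Exons of Thbs1, Thbs3 and Tnc overlap an exon of Gm29233, Mtx1 and 8030451A03Rik, respectively, on the opposite strand, and an exon of Spp1 overlaps Gm42793 on its own strand. How the authors' counting handled strand is not given in the sources used here, so reads in those overlaps may have been shared.

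Postn, Spp1 and Thbs2 fell together in TAZ4SA, in YAP5SA and in EVsub, as described below, and the 250 bases before their starts are shown for that reason. The sequences are RefSeq promoter windows of GRCm38.p6, read 5′ to 3′ along the gene, at chr3:54360857-54361106 (plus) for Postn, chr5:104434861-104435110 (plus) for Spp1 and chr17:14694263-14694512 (minus) for Thbs2. Capitals mark the letters TATAA, the core of a TATA box, on the coding strand.
Postn: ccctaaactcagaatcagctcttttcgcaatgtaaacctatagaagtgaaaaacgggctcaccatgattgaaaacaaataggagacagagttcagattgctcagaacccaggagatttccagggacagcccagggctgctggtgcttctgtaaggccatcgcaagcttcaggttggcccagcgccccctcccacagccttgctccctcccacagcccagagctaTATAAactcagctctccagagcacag
Spp1: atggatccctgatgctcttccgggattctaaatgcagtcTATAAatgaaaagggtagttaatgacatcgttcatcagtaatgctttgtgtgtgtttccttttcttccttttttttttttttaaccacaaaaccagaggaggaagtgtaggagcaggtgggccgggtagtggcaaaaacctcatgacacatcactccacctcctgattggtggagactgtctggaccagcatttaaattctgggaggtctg
Thbs2: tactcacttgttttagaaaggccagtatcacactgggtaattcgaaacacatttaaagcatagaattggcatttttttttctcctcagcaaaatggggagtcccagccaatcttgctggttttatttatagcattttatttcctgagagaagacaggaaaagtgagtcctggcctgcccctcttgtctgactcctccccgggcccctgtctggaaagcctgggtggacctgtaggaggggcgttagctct
The TATAA of Postn began 26 bases before the start, whereas the match in Spp1 began 211 bases before it and Thbs2 had none. TATAA also occurred in the windows of Tnc. Windows were found for 6 of the 9 genes, namely Thbs2, Thbs3, Tnc, Postn, Spp1 and Sparc. The only Sparc window belonged to a RefSeq start 3103 bases inside the gene from its GENCODE start, so the bases before that GENCODE start were not searched. Postn and Spp1 each had a further window, whose starts were 1842 and 1074 bases from the GENCODE start. None of the windows of these 6 genes held GGAATG (the core bound by TEAD factors), CACGTG (the E-box bound by TFE3) or TGANTCA (the AP-1 site, N being any base) on either strand in those 250 bases. Of all 32851 such windows 12.6%, 6.02% and 6.75% held them, and 16.0% held TATAA on the coding strand. These matches describe letters in a short window and were not tested for binding.

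The 9 genes were unequal in level. Per kilobase of exon, Spp1 was the highest in EV at 1142 ± 242 CPM per kb (mean ± SD, n = 3), followed by Thbs2 at 597 ± 169.6, Sparc at 420.4 ± 34.0 and Postn at 344 ± 68.3 CPM per kb. Thbs1 stood at 103 ± 38.1, Mgp at 36.7 ± 2.76, Sparcl1 at 22.4 ± 12.0 and Tnc at 16.4 ± 3.96 CPM per kb, and Thbs3 was the lowest at 3.29 ± 0.149 CPM per kb. The summed level of the 9 genes was 2685 ± 538 CPM per kb in EV, 2022 ± 71.6 in TFE3, 2352 ± 37.5 in TAZ-CAMTA1 and 2316 ± 298 in YAP-TFE3. It was 1160 ± 106 CPM per kb in TAZ4SA and 934 ± 37.0 in YAP5SA, and 1321 ± 266 in EVsub and 1349 ± 290 in CAMTA1, so every library of TAZ4SA, YAP5SA and both sub-confluent groups lay below every library of the other 4 groups. The makeup differed too. Spp1 held 41.8% to 42.9% of the sum in the EV libraries but 1.45% to 7.43% in TAZ4SA and 1.04% to 2.31% in YAP5SA. Sparc held 14.2% to 18.2% of it in EV, 40.3% to 54.9% in TAZ4SA and 49.2% to 61.6% in YAP5SA. Thbs1 held 3.10% to 4.42% in EV, 32.4% to 49.0% in TAZ4SA and 29.1% to 43.6% in YAP5SA. Higher shares than in EV were not limited to those groups. Sparc held 31.5% to 38.8% in EVsub, 34.8% to 37.5% in TAZ-CAMTA1 and 31.3% to 36.9% in YAP-TFE3. In CAMTA1, Thbs1 held 23.2% to 37.7%. These shares carry no test.

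**Figure D1:**
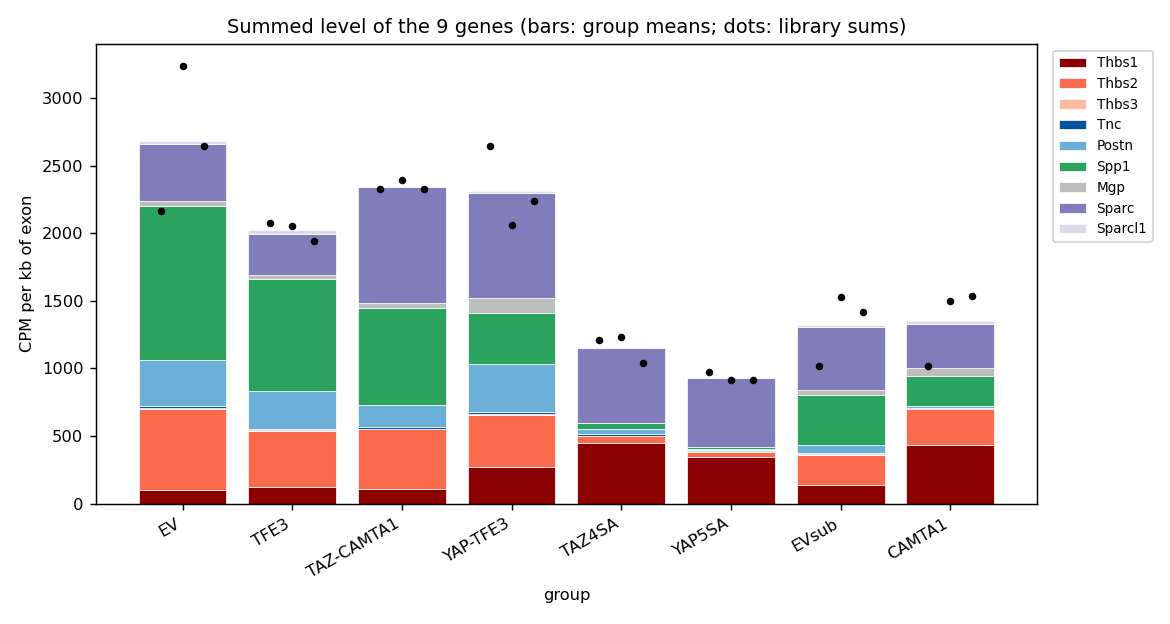
Summed level of the 9 genes in CPM per kb of exon (vertical axis, from 0) for the 8 groups; bars stack the group means by gene and dots are the sums of the 3 libraries of a group. Spp1 and Thbs2 make up much of the EV bar, whereas Sparc and Thbs1 fill most of the TAZ4SA and YAP5SA bars, which reach 1160 and 934 CPM per kb.

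Each gene was then compared between groups with edgeR's quasi-likelihood test, and a gene was called when its Benjamini-Hochberg adjusted p over the 14361 genes was under 0.05. The full-length activated proteins changed most of the genes, chiefly downward. Against EV, TAZ4SA changed 6 of the 9, with 1 higher and 5 lower, where 57.5% of all tested genes were called, 31.1% higher and 26.4% lower. YAP5SA changed 7, with 1 higher and 6 lower, where 71.2% of all tested genes were called, 36.3% higher and 34.9% lower. With backgrounds that high, the number called is no result about these genes by itself. The median log2 fold change was -1.92 for TAZ4SA and -2.85 for YAP5SA, beside 0.049 and 0.014 over all tested genes. In bulk RNA, fewer cells expressing a gene and less of its RNA per cell cannot be told apart.

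The fusion proteins gave fewer calls than TAZ4SA and YAP5SA, among the 9 genes as among all tested genes. Of the 9, fewer were called lower and more were called higher. TAZ-CAMTA1 changed 4 genes against EV, 2 higher and 2 lower, where 21.5% of all tested genes were called, 12.5% higher and 8.98% lower. YAP-TFE3 also changed 4, 3 higher and 1 lower, where 15.3% were called, 10.6% higher and 4.74% lower. Their median log2 fold changes were -0.44 and 0.14, beside -0.0041 and 8.3e-06 over all tested genes. Without EV replicate 1, TAZ-CAMTA1 had 2 calls. TFE3 alone changed none of the 9 by edgeR at the adjusted threshold, where 3.38% of all genes were called, 2.36% higher and 1.02% lower. At an unadjusted p under 0.05, 2 passed, and DESeq2 called 1, as did edgeR without EV replicate 1. CAMTA1 changed 2 of the 9 against EVsub, 1 higher and 1 lower, where 2.18% were called, 1.29% higher and 0.891% lower. That count was 1 without CAMTA1 replicate 1 or 2, 4 without EVsub replicate 1 and 0 without EVsub replicate 2. EVsub, the same empty vector at lower density, changed 3 against EV, all lower, where 22.1% of all genes were called, 12.5% higher and 9.59% lower. All the comparisons with EV share the same 3 EV libraries.

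**Figure D2:**
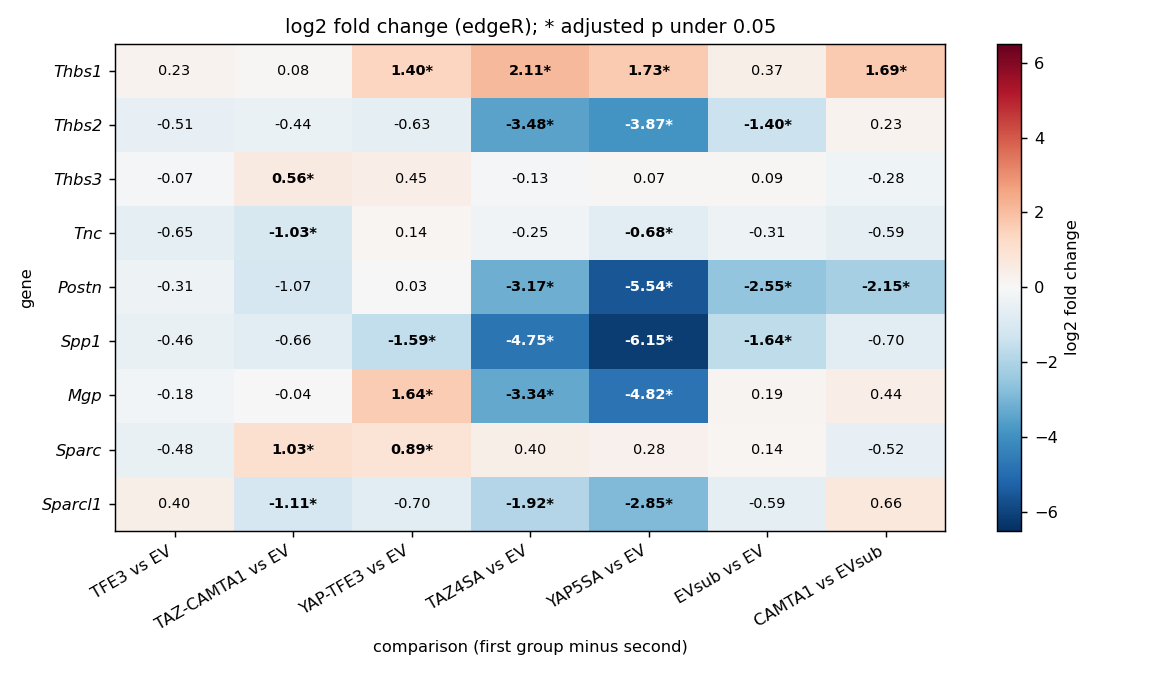
Log2 fold change of each gene (rows) in 7 comparisons (columns), from edgeR, with the first group named minus the second; red is higher, blue is lower, and bold values with an asterisk have an adjusted p under 0.05. The deepest falls are Spp1 (-6.15), Postn (-5.54) and Mgp (-4.82) in YAP5SA, and the TFE3 column holds no asterisk.

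Thbs1 rose with both full-length proteins and with YAP-TFE3. The EV libraries stood at 407, 869 and 606 CPM, those of TAZ4SA at 3601, 2427 and 2088 CPM and those of YAP5SA at 2585, 1611 and 2029 CPM. YAP-TFE3 gave 2045, 1635 and 1288 CPM and TAZ-CAMTA1 744, 657 and 588 CPM. Every TAZ4SA, YAP5SA and YAP-TFE3 library was above every EV library, while the TAZ-CAMTA1 libraries fell inside the EV range. The rise was 4.31-fold in TAZ4SA (log2 fold change 2.11, SE 0.32, adjusted p = 7.50e-06), 3.31-fold in YAP5SA (log2 fold change 1.73, SE 0.31, adjusted p = 3.87e-05) and 2.64-fold in YAP-TFE3 (log2 fold change 1.40, SE 0.31, adjusted p = 0.00265). For TAZ-CAMTA1 the log2 fold change was 0.08 with a 95% interval of -0.55 to 0.71.

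At sub-confluence, Thbs1 was also higher with CAMTA1. EVsub gave 999, 513 and 927 CPM and CAMTA1 1427, 3428 and 3004 CPM, with every CAMTA1 library above every EVsub library and CAMTA1 replicate 1 the closest to them. The rise was 3.22-fold (log2 fold change 1.69, SE 0.31, adjusted p = 0.00496). Without EVsub replicate 2 the log2 value was 1.44, adjusted p = 0.0525, and with only these groups in the fit the adjusted p was 0.137. EVsub against EV gave a Thbs1 log2 fold change of 0.37, and TFE3 against EV 0.23, neither called. Over the 8 groups the mean level of Thbs1 ran from 628 ± 232 CPM in EV to 2705 ± 794 CPM in TAZ4SA, and YAP-TFE3 and EVsub were the only neighbours in that order whose ranges did not overlap.

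Thbs2, the close relative of Thbs1 that is also known to restrain blood vessel growth, went the other way. The EV libraries held 3157, 5484 and 3903 CPM. TAZ4SA brought this to 396, 489 and 238 CPM and YAP5SA to 191, 355 and 312 CPM, so that every library of both lay far under every EV library. The falls were 11.2-fold (log2 fold change -3.48, SE 0.28, adjusted p = 1.98e-09) and 14.6-fold (log2 fold change -3.87, SE 0.29, adjusted p = 1.47e-10). TAZ-CAMTA1 libraries held 3691, 2791 and 2785 CPM and YAP-TFE3 libraries 2741, 2424 and 2915 CPM, and neither passed the test, with log2 fold changes of -0.44 (95% interval -0.97 to 0.10) and -0.63 (95% interval -1.17 to -0.10). The YAP-TFE3 libraries all lay below EV, whereas those of TAZ-CAMTA1 overlapped it. Without the filter on low counts the fall in YAP-TFE3 passed (adjusted p = 0.0161). In EVsub the level was 1422, 1289.8 and 2043 CPM, every library below every EV library, a 2.64-fold fall (log2 fold change -1.40, SE 0.26, adjusted p = 6.39e-04). CAMTA1 and EVsub overlapped (log2 fold change 0.23). In the order of levels, 3 tiers did not overlap: EV, TAZ-CAMTA1, TFE3 and YAP-TFE3 at the top, CAMTA1 and EVsub between, and TAZ4SA and YAP5SA at the bottom.

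Thbs3, which forms pentamers like Thbs4 and Comp, was the least abundant of the 9 in EV per kilobase and moved little. Its mean level lay between 13.8 ± 1.42 CPM in CAMTA1 and 23.4 ± 2.88 CPM in TAZ-CAMTA1, and the ranges of all neighbours in that order overlapped. Against the EV libraries at 15.5, 15.4 and 16.7 CPM, TAZ-CAMTA1 stood at 26.6, 21.1 and 22.4 CPM, with every library higher. That rise was 1.47-fold (log2 fold change 0.56, SE 0.17, adjusted p = 0.0176), and the adjusted p was 0.0648 without EV replicate 1 and 0.0817 without TAZ-CAMTA1 replicate 1. YAP-TFE3, with 23.8, 22.2 and 19.1 CPM, was also above EV in every library but missed the threshold (log2 fold change 0.45, adjusted p = 0.0686). It passed with only these groups in the fit (adjusted p = 0.0294). In YAP5SA the log2 fold change was 0.07 and not called, and it turned to -0.30 when library totals replaced TMM, a change that moved the median of all genes in that comparison by -0.37.

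**Figure D3:**
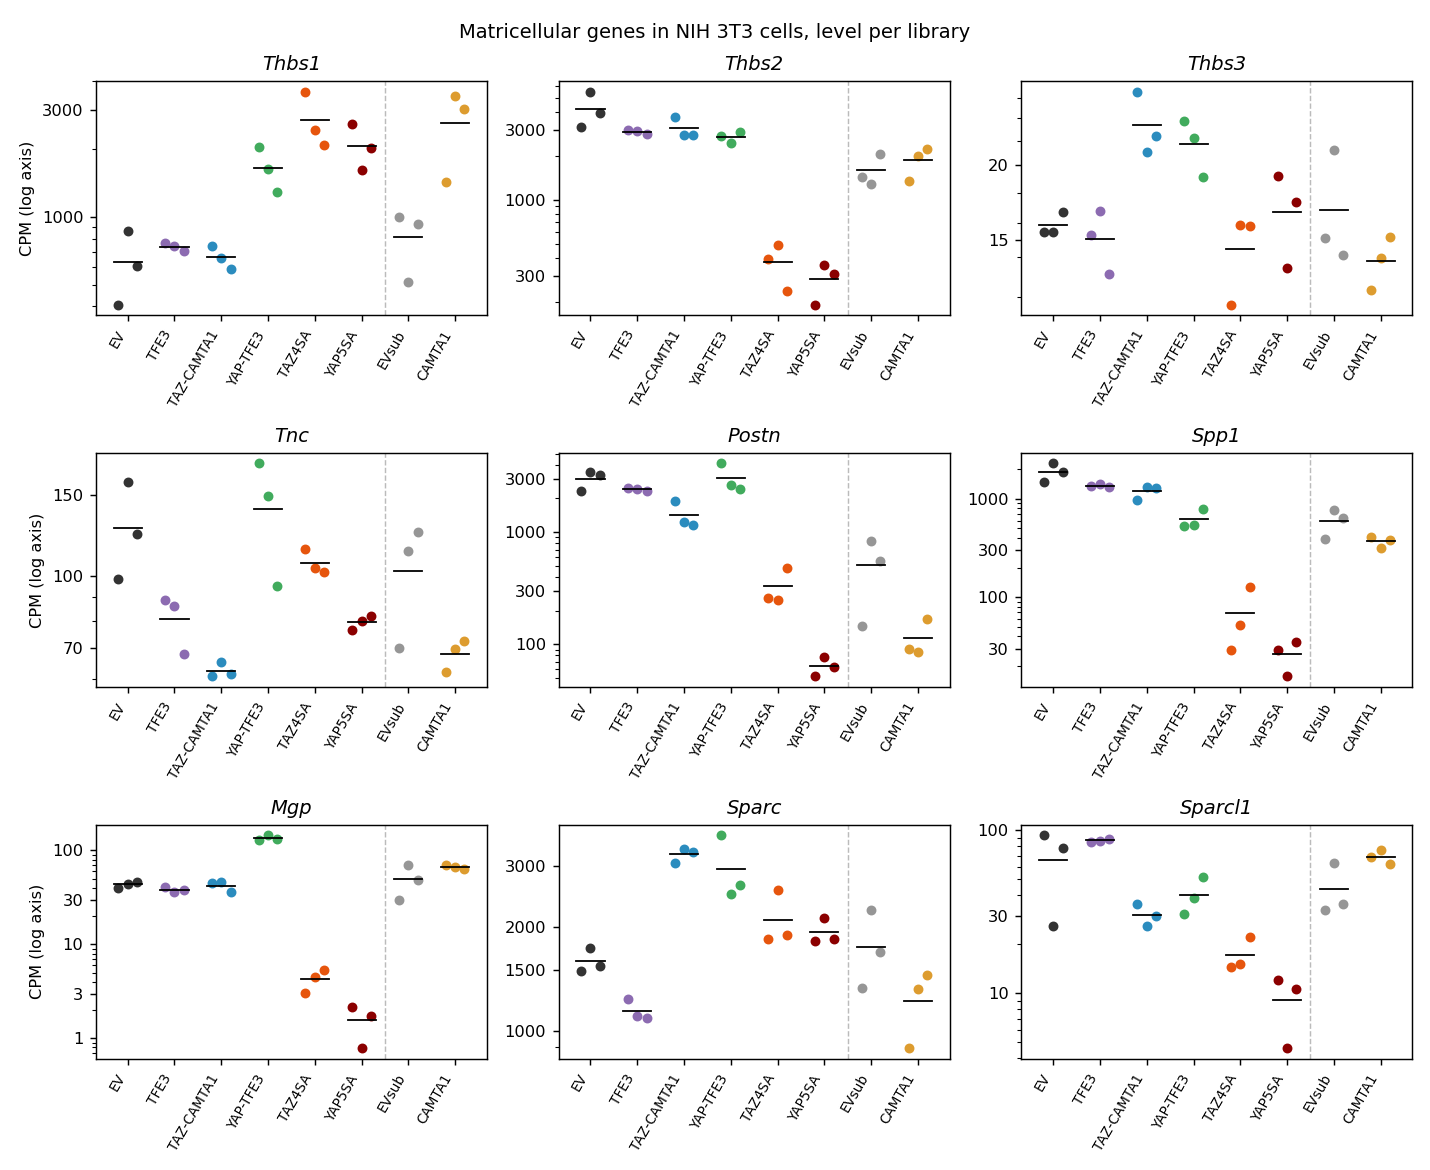
Level of each gene in CPM (log axis) in the 24 libraries; dots are libraries, horizontal lines are means of the 3 libraries of a group, and the dashed line separates the confluent groups (left) from the sub-confluent EVsub and CAMTA1 (right). Thbs2, Postn, Spp1 and Mgp drop in TAZ4SA and YAP5SA while Thbs1 is high there, and Mgp is highest in YAP-TFE3 (130 to 145 CPM).

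Tenascin C, a large hexameric glycoprotein that modulates cell adhesion, fell with TAZ-CAMTA1. The EV libraries gave 98.5, 159.7 and 123 CPM and the TAZ-CAMTA1 libraries 60.7, 65.2 and 61.4 CPM, tightly grouped and all below EV. The fall was 2.04-fold (log2 fold change -1.03, SE 0.20, adjusted p = 7.05e-04). YAP5SA, at 76.3, 80.2 and 82.0 CPM, was lower than EV by a smaller factor (log2 fold change -0.68, SE 0.20, adjusted p = 0.00440). Tnc in YAP-TFE3 spread from 95.5 to 176 CPM across the EV range, with a log2 fold change of 0.14, and in TAZ4SA it was -0.25, neither called. TFE3 gave 88.8, 86.2 and 67.9 CPM, every library below every EV library, and missed the threshold (log2 fold change -0.65, adjusted p = 0.0779). Among the settings where it passed were DESeq2 (adjusted p = 0.0421) and the fit without EV replicate 1 (adjusted p = 0.0462). CAMTA1 against EVsub gave -0.59, not called, and -0.81, adjusted p = 0.0172 without EVsub replicate 1. It also passed without the filter on low counts (adjusted p = 0.0153). The ranges of YAP5SA and CAMTA1 were the only neighbouring ones in the order of Tnc levels that did not overlap.

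Periostin, a fasciclin-domain protein that binds integrins and collagen, was abundant in EV, TFE3 and YAP-TFE3 and scarce in YAP5SA. The EV libraries held 2316, 3433 and 3224 CPM and the YAP-TFE3 libraries 4088, 2618 and 2439.9 CPM, which overlapped. TAZ4SA held 260.0, 251 and 484 CPM and YAP5SA 52.0, 78.1 and 62.7 CPM, with no overlap between any of these groups and EV. The falls were 9.02-fold (log2 fold change -3.17, SE 0.44, adjusted p = 2.54e-06) and 46.5-fold (log2 fold change -5.54, SE 0.49, adjusted p = 1.66e-09). TAZ-CAMTA1 stood between, at 1887, 1225 and 1149 CPM, every library below every EV library, but missed the threshold (log2 fold change -1.07, adjusted p = 0.0620). Among the settings where it passed were DESeq2 (adjusted p = 0.0438) and the fit without TAZ-CAMTA1 replicate 1 (adjusted p = 0.0467).

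Postn was also lower in the empty vector lines at sub-confluence. The EVsub libraries gave 147, 841 and 549 CPM, all below EV and 5.84-fold lower on the whole (log2 fold change -2.55, SE 0.42, adjusted p = 2.09e-04), with replicate 1 far under the other EVsub libraries. CAMTA1 gave 90.5, 85.2 and 169.8 CPM, and its highest library exceeded EVsub replicate 1. Against EVsub this was 4.45-fold lower (log2 fold change -2.15, SE 0.42, adjusted p = 0.00775). That call was lost without CAMTA1 replicate 1 (adjusted p = 0.0545), without CAMTA1 replicate 2 (adjusted p = 0.0629), without EVsub replicate 2 (adjusted p = 0.0910), and with only these groups in the fit (adjusted p = 0.177). The fibroblast marker Dcn moved with Postn over the groups, from 2181 to 2729 CPM in EV to 77.3 to 482 CPM in EVsub, 359 to 527 CPM in TAZ4SA and 38.1 to 71.8 CPM in YAP5SA, whereas the marker Col1a1 stood at 2384 to 2889 CPM in EV and 2629 to 2944 CPM in YAP5SA. The marker Thy1 differed in the other direction, with a mean of 38.0 CPM in EV, 73.9 in EVsub, 120.2 in TAZ4SA and 195.1 in YAP5SA, and Vim averaged 3532 CPM in EV, 4079 in EVsub, 4386 in TAZ4SA and 8076 in YAP5SA. Other markers had lower means in TAZ4SA and YAP5SA than in EV. The means in EV, TAZ4SA and YAP5SA were 56.1, 24.2 and 3.31 CPM for Lum and 568, 205 and 142 CPM for Pdgfrb. They were 891, 223 and 280 CPM for S100a4, 17470, 6495 and 8069 CPM for Fn1 and 3527, 2387 and 2466 CPM for Col3a1. Col1a2 averaged 8008, 6470 and 8512 CPM, and Col1a1 2666, 2111 and 2754 CPM. The part of these marker changes in the Postn values was not tested.

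Osteopontin, encoded by Spp1, showed the largest fall of the 9 genes in any comparison with EV. The EV libraries held 1493, 2291 and 1859 CPM. In TAZ4SA the libraries held 28.9, 52.8 and 127 CPM and in YAP5SA 29.1, 15.7 and 34.8 CPM. All of them lay well under every EV library, and TAZ4SA replicate 3 stood well above the other TAZ4SA libraries. The falls were 27.0-fold (log2 fold change -4.75, SE 0.41, adjusted p = 5.06e-09) and 71.2-fold (log2 fold change -6.15, SE 0.44, adjusted p = 8.81e-11). Without TAZ4SA replicate 3 the first became -5.53 on the log2 scale.

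Spp1 also fell with YAP-TFE3 and at lower density. YAP-TFE3 libraries stood at 535, 543 and 793 CPM, every one below EV, a 3.02-fold fall (log2 fold change -1.59, SE 0.36, adjusted p = 0.00344). EVsub libraries stood at 389, 773 and 645 CPM, a 3.12-fold fall (log2 fold change -1.64, SE 0.36, adjusted p = 0.00243). TAZ-CAMTA1, at 973, 1316 and 1282 CPM, was below EV in every library and not called (log2 fold change -0.66, 95% interval -1.39 to 0.07). It passed without the filter on low counts (adjusted p = 0.0410) and with only these groups in the fit (adjusted p = 0.0180). The log2 fold changes of TFE3 against EV (-0.46) and CAMTA1 against EVsub (-0.70) were not called. Spp1 is also known as a product of macrophages and osteoblasts. The myeloid sum was higher in every library of the other 7 groups than in EV. Within that list Adgre1 and Tyrobp were at 0 in every library. Means in EV, TAZ4SA and YAP5SA were 3.18, 40.6 and 66.9 CPM for Cd68 and 0.636, 5.41 and 40.0 CPM for Csf1r. For Itgam they were 0.0159, 1.32 and 1.13 CPM. Cd14 differed less, at 2.91, 3.53 and 3.20 CPM, and Fcer1g averaged 0.0595, 0.0770 and 0.0211 CPM. In TAZ-CAMTA1 Cd14 averaged 8.76 CPM, while Cd68 (2.05 CPM) and Csf1r (0.398 CPM) had lower means than in EV. In YAP-TFE3 Cd14 averaged 6.64 CPM. The osteoblast and chondrocyte sum was 146 to 197 CPM in EV, 58.3 to 80.0 CPM in TAZ4SA and 42.3 to 55.4 CPM in YAP5SA. Most of that difference lay in Sox9, with means of 128, 27.7 and 3.40 CPM in these groups. Runx2 averaged 48.4, 39.6 and 43.4 CPM, and Sp7, Alpl, Bglap and Ibsp were at 0 in EV. The part of either marker list in the Spp1 values was not tested.

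Matrix Gla protein, a small protein whose glutamates are carboxylated with vitamin K and which keeps vessels and cartilage from calcifying, separated YAP-TFE3 from every other group. The EV libraries held 40.1, 43.9 and 46.6 CPM and those of YAP-TFE3 129.8, 145 and 133 CPM, the highest range of the 8 groups with no overlap. The rise was 3.13-fold (log2 fold change 1.64, SE 0.22, adjusted p = 1.77e-05). TAZ-CAMTA1 libraries, at 44.6, 46.1 and 36.2 CPM, overlapped EV (log2 fold change -0.04, 95% interval -0.50 to 0.42). With the full-length proteins Mgp fell, to 3.03, 4.50 and 5.32 CPM in TAZ4SA and 2.16, 0.785 and 1.71 CPM in YAP5SA, the latter resting on 16 to 42 counts per library. Those falls were 10.1-fold (log2 fold change -3.34, SE 0.26, adjusted p = 1.02e-09) and 28.3-fold (log2 fold change -4.82, SE 0.30, adjusted p = 9.80e-12), and the ranges of TAZ4SA and YAP5SA did not overlap each other. Unlike Postn and Spp1, Mgp was not called between EVsub and EV (log2 fold change 0.19, 95% interval -0.27 to 0.64), nor in TFE3 (-0.18) or CAMTA1 (0.44).

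SPARC, a collagen-binding glycoprotein also called osteonectin, rose with both fusion proteins. The EV libraries held 1494, 1738 and 1545 CPM, TAZ-CAMTA1 libraries 3069, 3368 and 3307 CPM and YAP-TFE3 libraries 3692, 2499 and 2656 CPM. Every library of each fusion protein was above every EV library. The rises were 2.04-fold (log2 fold change 1.03, SE 0.19, adjusted p = 5.08e-04) and 1.85-fold (log2 fold change 0.89, SE 0.19, adjusted p = 0.00238). TAZ4SA, at 1847, 2563 and 1894 CPM, and YAP5SA, at 1819, 2127 and 1845 CPM, were also above EV in every library but did not pass (log2 fold changes 0.40 and 0.28, adjusted p = 0.0799 and 0.201). The YAP5SA value was -0.10 with library totals in place of TMM. TFE3 lay below EV in every library at 1235, 1104 and 1092 CPM, not called (log2 fold change -0.48, adjusted p = 0.224). It passed with only these groups in the fit (adjusted p = 0.0112). CAMTA1 against EVsub gave -0.52, not called, and -0.68, adjusted p = 0.0493 without EVsub replicate 1.

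Sparcl1, the relative of SPARC also called hevin, was lower with the full-length proteins and with TAZ-CAMTA1. Its EV libraries were uneven at 93.3, 26.0 and 77.8 CPM, replicate 2 standing apart from the others. TAZ4SA libraries held 14.5, 15.1 and 22.2 CPM and YAP5SA libraries 12.2, 4.61 and 10.6 CPM, all below even that EV library. The falls were 3.79-fold (log2 fold change -1.92, SE 0.36, adjusted p = 9.78e-05) and 7.23-fold (log2 fold change -2.85, SE 0.38, adjusted p = 6.79e-07). The TAZ-CAMTA1 libraries, at 35.4, 26.0 and 29.9 CPM, overlapped EV replicate 2 (log2 fold change -1.11, SE 0.34, adjusted p = 0.0235). That call was lost with only these groups in the fit (adjusted p = 0.0508), without EV replicate 1 (adjusted p = 0.174) or replicate 3 (adjusted p = 0.0966), and without TAZ-CAMTA1 replicate 2 (adjusted p = 0.0997) or replicate 3 (adjusted p = 0.0753).

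YAP-TFE3, with 30.8, 38.4 and 52.1 CPM of Sparcl1, and EVsub, with 32.7, 62.7 and 35.3 CPM, were not called against EV (log2 fold changes -0.70 and -0.59). Both passed without EV replicate 2, at -1.08, adjusted p = 0.0125, and -0.97, adjusted p = 0.0198. YAP-TFE3 also passed without the filter on low counts (adjusted p = 0.0279). The highest mean of Sparcl1 was in TFE3, at 84.8, 86.4 and 89.1 CPM, where the log2 fold change was 0.40 and not called. In CAMTA1 it was 0.66 against EVsub, also not called.

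Set directly against its full-length partner, each fusion protein left most of these genes higher. TAZ-CAMTA1 differed from TAZ4SA in 8 of the 9 genes, 6 higher and 2 lower, where 54.7% of all tested genes were called, 26.6% higher and 28.1% lower. YAP-TFE3 differed from YAP5SA in 8, all higher, where 70.9% were called, 36.4% higher and 34.5% lower. The median log2 fold changes were 0.81 and 2.15, beside 0.0032 and 0.047 over all tested genes. With the library totals in place of TMM the medians of all genes moved by 0.17 and 0.36.

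Mgp and Postn showed the widest gaps between YAP-TFE3 and YAP5SA, 88.3-fold (log2 fold change 6.46, SE 0.30, adjusted p = 4.33e-13) and 47.4-fold (log2 fold change 5.57, SE 0.49, adjusted p = 1.99e-09). Spp1 was 23.6-fold higher (log2 fold change 4.56, SE 0.41, adjusted p = 3.17e-09), Thbs2 9.41-fold (log2 fold change 3.23, SE 0.28, adjusted p = 1.80e-09) and Sparcl1 4.45-fold (log2 fold change 2.15, SE 0.37, adjusted p = 2.33e-05). In each of these 5 genes every YAP-TFE3 library lay above every YAP5SA library. Smaller rises were called for Tnc (log2 fold change 0.82, SE 0.20, adjusted p = 9.47e-04), Sparc (log2 fold change 0.61, SE 0.19, adjusted p = 0.00729) and Thbs3 (log2 fold change 0.38, SE 0.17, adjusted p = 0.0449). The libraries overlapped in Thbs3 alone of these 3. The Sparc call was lost without YAP-TFE3 replicate 1 (adjusted p = 0.0520). The Thbs3 call was lost without YAP5SA replicate 2 (0.224) or 3 (0.0635) and without YAP-TFE3 replicate 1 (0.120) or 2 (0.0950), the values being adjusted p. Thbs1 did not differ past the threshold (log2 fold change -0.33, 95% interval -0.95 to 0.30), and its value was 0.023 with library totals.

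TAZ-CAMTA1 was above TAZ4SA in Spp1 by 17.1-fold (log2 fold change 4.09, SE 0.40, adjusted p = 5.12e-08), in Mgp by 9.86-fold (log2 fold change 3.30, SE 0.26, adjusted p = 2.34e-09), in Thbs2 by 8.26-fold (log2 fold change 3.05, SE 0.28, adjusted p = 2.06e-08) and in Postn by 4.28-fold (log2 fold change 2.10, SE 0.42, adjusted p = 2.41e-04). Without TAZ4SA replicate 3 the Spp1 value was 4.87 on the log2 scale. Thbs3 (log2 fold change 0.70, SE 0.17, adjusted p = 0.00141) and Sparc (log2 fold change 0.63, SE 0.19, adjusted p = 0.00889) were higher by less. Thbs1 was 4.08-fold lower (log2 fold change -2.03, SE 0.31, adjusted p = 1.54e-05) and Tnc 1.71-fold lower (log2 fold change -0.78, SE 0.20, adjusted p = 0.00243). Every one of these 8 genes had all TAZ-CAMTA1 libraries on one side of all TAZ4SA libraries. Sparcl1 was higher in every TAZ-CAMTA1 library but not called (log2 fold change 0.81, adjusted p = 0.0566), and it passed without TAZ4SA replicate 3 (1.04, adjusted p = 0.0316). It also passed with library totals (adjusted p = 0.0339), without the filter on low counts (adjusted p = 0.00202), with at least 10 counts in every library (adjusted p = 0.0480) and with only these groups in the fit (adjusted p = 0.0157).

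**Figure D4:**
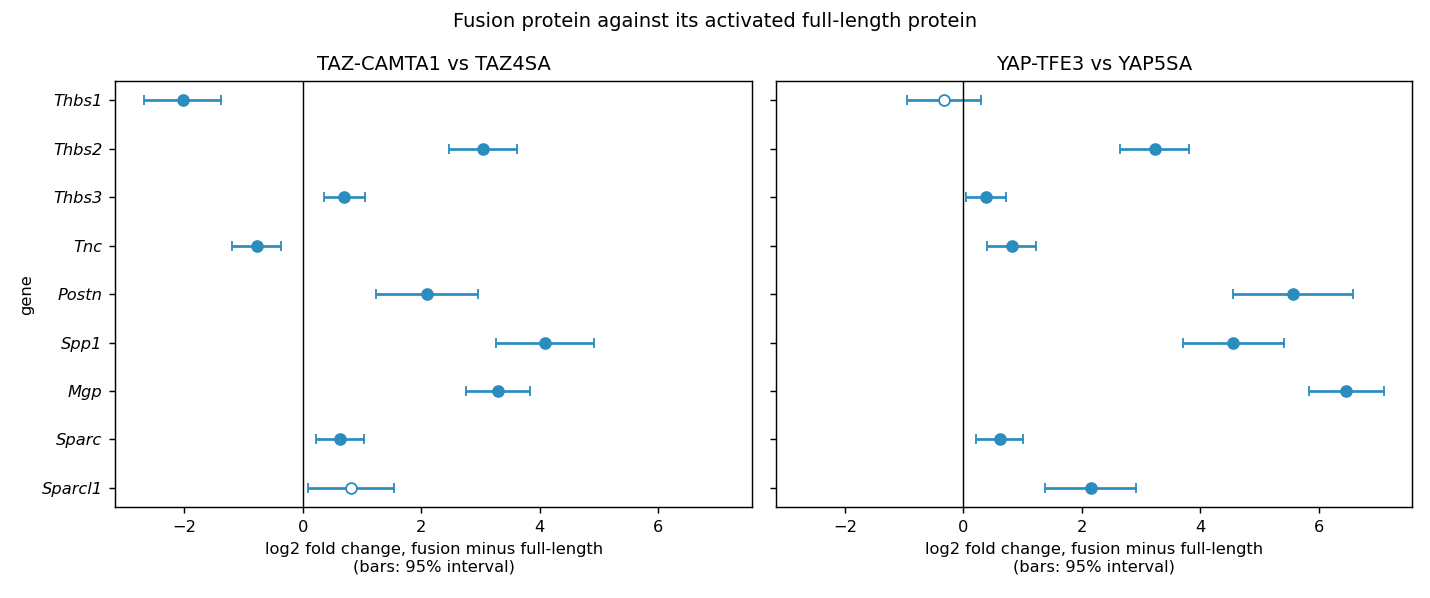
Log2 fold change of each fusion protein minus its activated full-length protein (horizontal axis), TAZ-CAMTA1 against TAZ4SA on the left and YAP-TFE3 against YAP5SA on the right; points are edgeR estimates, bars 95% intervals, and filled points have an adjusted p under 0.05. Tnc and Thbs1 lie left of 0 in the left panel, and Mgp reaches 6.46 in the right panel.

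The fusion proteins differed from each other in 3 of the 9 genes, where 11.6% of all tested genes were called, 5.32% higher and 6.32% lower in TAZ-CAMTA1. All 3 were lower in TAZ-CAMTA1, in every library: Mgp by 3.22-fold (log2 fold change -1.69, SE 0.22, adjusted p = 2.28e-05), Thbs1 by 2.50-fold (log2 fold change -1.32, SE 0.31, adjusted p = 0.00667) and Tnc by 2.24-fold (log2 fold change -1.16, SE 0.20, adjusted p = 4.12e-04). For Postn the value was -1.10 (adjusted p = 0.0815) and for Spp1 0.93 (adjusted p = 0.0935), neither called, although the libraries of the groups did not overlap in either gene. Both passed without the filter on low counts and with only these groups in the fit. Thbs2, Thbs3, Sparc and Sparcl1 lay between -0.41 and 0.20 on the log2 scale, with overlapping libraries.

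The full-length proteins differed in 4 of the 9, all higher in TAZ4SA than in YAP5SA, where 42.4% of all tested genes were called, 22.8% higher and 19.6% lower. Postn was 5.16-fold higher (log2 fold change 2.37, SE 0.42, adjusted p = 1.59e-04) and Mgp 2.78-fold (log2 fold change 1.48, SE 0.32, adjusted p = 9.98e-04), with no overlap of libraries. Spp1 was 2.64-fold higher (log2 fold change 1.40, SE 0.37, adjusted p = 0.00447) with overlapping libraries, and the call was lost without TAZ4SA replicate 3 (log2 fold change 0.62, adjusted p = 0.127) and with only these groups in the fit (adjusted p = 0.0647). The count of calls was 2 without that library. Sparcl1 was higher in every TAZ4SA library and passed narrowly (log2 fold change 0.93, SE 0.37, adjusted p = 0.0491). Its adjusted p was 0.0541 with DESeq2, 0.0516 with DESeq2 size factors in edgeR, 0.0798 with only these groups in the fit, 0.0535 and 0.209 without TAZ4SA replicates 1 and 3, and 0.225 and 0.0644 without YAP5SA replicates 2 and 3. Tnc, at 102 to 115 CPM in TAZ4SA and 76.3 to 82.0 CPM in YAP5SA, was higher in every TAZ4SA library but not called (log2 fold change 0.43, SE 0.20, adjusted p = 0.0881). It passed with library totals (adjusted p = 0.0142), without the filter on low counts (adjusted p = 0.0419) and with only these groups in the fit (adjusted p = 0.0478).

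The 9 genes did not share a single pattern over the libraries. Across the 24 libraries, Pearson's r of log2 CPM was 0.93 between Thbs2 and Spp1, 0.86 between Thbs2 and Mgp, 0.85 between Spp1 and Mgp and 0.80 between Mgp and Sparcl1, whereas it was -0.74 between Thbs1 and Spp1 and 0.0039 between Sparc and Mgp. These values are descriptions over libraries that share their groups, with no test. Among all tested genes, the one most like Thbs2 was Smoc2 (r = 0.98), which lies at chr17:14279506-14404790, 260.7 kb from Thbs2 with no protein-coding gene between them. Next for Thbs2 was Ebf1 (0.97). For Postn the closest were 5930403N24Rik and Dcn (0.96 each), for Spp1 Xxylt1 and Zfp41 (0.97 each), for Mgp Pofut1 and Ugt1a6b (0.97 each) and for Sparcl1 Tbc1d4 (0.95) and Slc25a10 (0.93). Sparc was closest to P4ha1 (0.90) and Sema3f (0.89), Thbs1 to Slc4a4 (0.88) and Adgrg6 (0.87), Thbs3 to Col1a2 (0.85) and Egln1 (0.82) and Tnc to Dram1 and Scp2 (0.76 each). Within groups, after the group means were taken out, r over these 18 pairs ran from 0.38 for Postn and 5930403N24Rik to 0.81 for Thbs2 and Smoc2.

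Of 17 family relatives of these genes, 9 were tested, namely Tnr, Tnn, Tnxb, Tgfbi, Smoc1, Smoc2, Spock2, Fstl1 and Dmp1. The other 8, among them Thbs4, Comp and Ibsp, averaged under 5 counts. Against EV, TAZ4SA changed 7 of the 9, 2 higher and 5 lower, and YAP5SA changed all 9, 3 higher and 6 lower, while TAZ-CAMTA1 changed 4 and YAP-TFE3 changed 3. The shares called were 77.8%, 100%, 44.4% and 33.3%, beside 57.5%, 71.2%, 21.5% and 15.3% of all tested genes. With at least 10 counts required in every library 4 relatives were tested, of which TAZ4SA changed 2 and YAP5SA 4. TFE3 changed none by edgeR, although 2 had an unadjusted p under 0.05 and 2 passed without the filter on low counts. EVsub changed 4, all lower, and CAMTA1 changed 1 against EVsub, where 22.1% and 2.18% of all genes were called, and 3.38% in TFE3. The counts of TAZ-CAMTA1 were 1 without EV replicate 1 or 3 and 2 without TAZ-CAMTA1 replicate 2 or 3, those of YAP-TFE3 were 1 without EV replicate 1 or 3 or YAP-TFE3 replicate 1, and that of CAMTA1 was 0 without CAMTA1 replicate 1 or EVsub replicate 2. The medians of the 9 were -1.58 for TAZ4SA, -1.74 for YAP5SA, 0.09 for TAZ-CAMTA1 and -0.03 for YAP-TFE3, and over all tested genes 0.049, 0.014, -0.0041 and 8.3e-06. Smoc2, a SPARC-related calcium-binding protein and the neighbour of Thbs2, had 308 ± 28.7 CPM in EV, 16.9 ± 4.47 CPM in TAZ4SA (log2 fold change -4.20, SE 0.37, adjusted p = 6.69e-09) and 7.63 ± 3.73 CPM in YAP5SA (log2 fold change -5.33, SE 0.40, adjusted p = 1.46e-10). Tenascin N (Tnn) rose from 0.237 ± 0.0593 CPM in EV to 1.73 ± 0.875 CPM in TAZ4SA (log2 fold change 2.85, SE 0.55, adjusted p = 1.37e-04) and 1.97 ± 0.107 CPM in YAP5SA (log2 fold change 3.02, SE 0.54, adjusted p = 3.68e-05). Those Tnn values rest on 4 to 7 counts per library in EV, 18 to 60 in TAZ4SA and 33 to 39 in YAP5SA. Tgfbi, the fasciclin-domain relative of Postn, had 14 to 25 counts per library in EV, 1 to 2 in TAZ4SA and 2 to 4 in YAP5SA, and was called lower in both. Dmp1, which lies between Sparcl1 and Spp1, had 8 to 16 counts per library in EV and none in YAP5SA, where it was at least 3.34-fold lower against a floor of 3 counts per library.

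Of 22 receptors and modifying enzymes of these proteins, 19 were tested, and Cd36, Itga4 and Stab1 averaged under 5 counts. TAZ4SA changed 9 of the 19, 3 higher and 6 lower, YAP5SA 14, 5 higher and 9 lower, TAZ-CAMTA1 8, 5 higher and 3 lower, and YAP-TFE3 8, 7 higher and 1 lower. TFE3 changed 3, EVsub 9 and CAMTA1 1. The shares called were 47.4% for TAZ4SA and 73.7% for YAP5SA, near the backgrounds of 57.5% and 71.2%, and 42.1% for each fusion protein, beside 21.5% and 15.3%. They were 15.8% for TFE3, 47.4% for EVsub and 5.26% for CAMTA1, beside 3.38%, 22.1% and 2.18%. TAZ-CAMTA1 gave 4 calls without EV replicate 3 and 3 without its replicate 3, and YAP-TFE3 gave 5 without EV replicate 1 and 4 without EV replicate 3 or its replicate 1. TFE3 gave 1 without EV replicate 1 or 3 or TFE3 replicate 1 or 2, and CAMTA1 gave 2 without CAMTA1 replicate 1. Tgm2, the transglutaminase that crosslinks osteopontin and other matrix proteins, rose from 11.6 ± 1.55 CPM in EV to 53.8 ± 17.0 CPM in YAP-TFE3 (log2 fold change 2.21, SE 0.19, adjusted p = 3.59e-08), 73.3 ± 15.0 CPM in TAZ4SA (log2 fold change 2.65, SE 0.19, adjusted p = 2.74e-10) and 167 ± 23.5 CPM in YAP5SA (log2 fold change 3.84, SE 0.20, adjusted p = 6.59e-13). TAZ-CAMTA1 had 17.5 ± 1.58 CPM of Tgm2, every library above every EV library, and this smaller rise was called. Among the fits that lost that call were those without EV replicate 1 (adjusted p = 0.0512), EV replicate 3 (0.121) or TAZ-CAMTA1 replicate 1 (0.0692). Itga8, an integrin subunit whose receptor binds osteopontin and tenascin C, fell from 55.8 ± 13.4 CPM to 13.6 ± 2.07 CPM in TAZ4SA (log2 fold change -2.03, SE 0.28, adjusted p = 2.23e-06) and 2.35 ± 0.901 CPM in YAP5SA (log2 fold change -4.56, SE 0.33, adjusted p = 8.39e-11). Itgb3, the beta subunit of the vitronectin receptor that binds osteopontin, fell in the same groups, from 12.0 ± 1.04 CPM to 4.22 ± 1.95 (log2 fold change -1.53, SE 0.32, adjusted p = 3.82e-04) and 2.19 ± 1.37 CPM (log2 fold change -2.43, SE 0.35, adjusted p = 1.79e-06). In TFE3 it was higher than EV in every library, at 30.1 ± 1.61 CPM (log2 fold change 1.33, SE 0.30, adjusted p = 0.0140). That call was lost without EV replicate 1 (adjusted p = 0.0550) or 3 (adjusted p = 0.0738) and without TFE3 replicate 1 (adjusted p = 0.0508) or 2 (adjusted p = 0.0514). The empty vector at lower density also differed from EV in level. EVsub had 5.18 ± 1.35 CPM of Itgb3, 27.8 ± 12.9 CPM of Itga8 and 31.5 ± 4.32 CPM of Tgm2. In CAMTA1 the means of these genes were 4.27, 35.8 and 62.9 CPM. Mmp2, a gelatinase, fell from 4241 ± 851 CPM to 982 ± 257 CPM in TAZ4SA, 805 ± 65.9 CPM in YAP5SA and 899 ± 325 CPM in EVsub, with log2 fold changes of -2.11, -2.40 and -2.24 and adjusted p = 3.97e-07, 2.79e-08 and 5.11e-06. Mmp2 levels with the fusion proteins lay between, at 2599 ± 415 CPM in TAZ-CAMTA1 and 2315 ± 490 CPM in YAP-TFE3. Every library of both was below every EV library. CAMTA1 had 685 ± 179 CPM and TFE3 4750 ± 106 CPM.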

How the data were processed

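The files deposited by the authors hold raw counts of reads for each Ensembl gene, 1 column per library, with no normalization. By the study's methods, stranded polyA libraries were read as 75 bp pairs on an Illumina HiSeq 4000 and processed with bcbio-nextgen 1.0.8 against mm10 with Ensembl release 97. Those methods name alignment with Hisat2 and, beside it, Salmon with tximport for counts per gene. Which route gave the deposited counts, and its strand setting, are not given in the sources used here. Counts were tested with edgeR 4.0.16 (R 4.3.3), all 24 libraries in one quasi-likelihood fit after TMM normalization, on the 14361 genes averaging 5 or more counts. Alternatives were DESeq2 1.42.0, other scalings and filters, a replicate block and left-out libraries. Groups and numbers came from sample titles; for 1 YAP-TFE3 library the description names another number. Replicates differed by 5.91 to 124 times counting noise (chi-square per degree of freedom), so none were duplicates. Correlations used log2 CPM with a prior count of 2. The genes and lists were chosen with earlier results of these data known. All 9 genes were named throughout. Of each list, the 4 called genes with the largest absolute log2 fold change against EV in TAZ-CAMTA1, TAZ4SA, YAP-TFE3 or YAP5SA were named, and for each of the 9 the 2 genes with the highest Pearson's r. The TATAA search was added after the sequences were seen.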

Additional observations from a re-analysis of the deposited data

Results flagged for a closer look

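Of the 9 genes, Mgp was the one called in opposite directions with a fusion protein and with its full-length partner, and the difference itself was tested. Against EV it was 3.13-fold higher in YAP-TFE3 and 28.3-fold lower in YAP5SA, and the direct comparison gave a log2 fold change of 6.46 (edgeR, adjusted p = 4.33e-13), higher in 3 of 3 YAP-TFE3 libraries than in any YAP5SA library. Thbs1, Postn, Spp1 and the others had no such pair of opposite calls.

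The same check over the family relatives, receptors and enzymes picked out 3 further genes, named here because of their values. Tenascin R (Tnr) had 1.06, 5.16 and 1.77 CPM in EV, 6.07, 8.11 and 8.50 CPM in TAZ-CAMTA1, 10.9, 4.65 and 6.11 CPM in YAP-TFE3, 0.198, 0.525 and 0.704 CPM in TAZ4SA and 0.565, 0.589 and 1.27 CPM in YAP5SA. The direct log2 fold changes were 3.97 for TAZ-CAMTA1 against TAZ4SA (adjusted p = 2.93e-06) and 3.18 for YAP-TFE3 against YAP5SA (adjusted p = 7.37e-06). Against EV, where replicate 2 stood above the other libraries, the Tnr calls were less firm. The rise in TAZ-CAMTA1 was lost without EV replicate 1 (adjusted p = 0.0865) or 3 (0.0800). The rise in YAP-TFE3 was lost without EV replicate 1 (0.135) or 3 (0.126) or YAP-TFE3 replicate 1 (0.220), and the fall in YAP5SA without EV replicate 2 (0.127). With only YAP-TFE3 and EV in the fit, the rise in YAP-TFE3 was lost as well (0.102). Low Tnr was not limited to the full-length proteins: EVsub, at 0.273, 0.463 and 0.930 CPM, was also below every EV library.

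Itga9, an integrin subunit that binds tenascin C and osteopontin, had 3.25, 2.39 and 2.43 CPM in EV, 6.07, 3.58 and 4.33 CPM in YAP-TFE3 and 1.03, 0.981 and 1.33 CPM in YAP5SA, and the direct log2 fold change was 2.06 (adjusted p = 4.99e-07). Bmp1, a protease that processes matrix proteins, had 144, 158 and 142 CPM in EV, 195, 201 and 177 CPM in YAP-TFE3 and 96.9, 83.8 and 86.9 CPM in YAP5SA, with a direct log2 fold change of 1.10 (adjusted p = 8.42e-09). The rises in YAP-TFE3 against EV were weaker than the direct differences: that of Itga9 was lost without EV replicate 2 (adjusted p = 0.0888) or 3 (0.115) or YAP-TFE3 replicate 1 (0.259), and that of Bmp1 without EV replicate 1 (0.0740) or 3 (0.0877) or YAP-TFE3 replicate 1 (0.104) or 2 (0.0761). With only YAP-TFE3 and EV in the fit, that of Itga9 was lost too (0.0649). In EVsub, Itga9 (1.32, 2.28 and 1.78 CPM) and Bmp1 (101, 134 and 116 CPM) were also below every EV library. The same held in TAZ4SA, TFE3 and CAMTA1.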

How the results depend on the processing

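Of 99 tests of the 9 genes over 11 comparisons, 49 were called and 41 of those were called under every alternative run; the other 8 are named in the report with the libraries or settings that ended the call. Of the 50 not called, 14 passed under at least 1 alternative. No called test changed direction. With 3 libraries a group, a left-out library leaves 2 in its group.

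Tests that were not called and changed sign were these. With library totals in place of TMM, Thbs3 in YAP5SA against EV was -0.30, Sparc in YAP5SA against EV -0.10 and Thbs1 in YAP-TFE3 against YAP5SA 0.023 on the log2 scale, and with at least 10 counts in every library Thbs3 in YAP5SA against EV was -0.024. That scaling moved the median of all genes by -0.18 in TAZ4SA against EV, -0.37 in YAP5SA against EV and 0.20 in TAZ4SA against YAP5SA. With single libraries left out, the log2 ranges against EV were -0.15 to 0.39 for Thbs1 and -0.11 to 0.059 for Mgp in TAZ-CAMTA1, -0.21 to 0.00069 for Thbs3 in TAZ4SA, -0.086 to 0.35 for Tnc and -0.27 to 0.16 for Postn in YAP-TFE3, -0.045 to 0.21 for Thbs3 in YAP5SA, -0.00017 to 0.54 for Thbs1 and -0.16 to 0.015 for Thbs3 in TFE3, and -0.12 to 0.20 for Thbs3, -0.15 to 0.45 for Mgp and -0.076 to 0.30 for Sparc in EVsub. For Sparc in TAZ4SA against YAP5SA the range was -0.045 to 0.21.

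Counts of called genes that moved by over 1.5 times were as follows, and the cause was not tested. For the 9 genes, TFE3 against EV gave 0 and then 1 with DESeq2, 1 without the filter on low counts and 2 when no other group entered the fit, and TAZ-CAMTA1 against YAP-TFE3 gave 3 and then 5 with either of the last 2 settings. CAMTA1 against EVsub gave 0 when no other group entered. Requiring an absolute log2 fold change of 1, which can only remove calls, left 5 in each comparison of a fusion protein with its full-length partner. Leaving out single libraries gave 2 to 4 for TAZ-CAMTA1 and 0 to 1 for TFE3 against EV, 0 to 4 for CAMTA1 against EVsub and 2 to 4 for TAZ4SA against YAP5SA. For the family relatives, requiring at least 10 counts in every library left 4 genes tested. Of those 4, 2 were called for TAZ4SA, 4 for YAP5SA and 2 for EVsub against EV. No filter gave 2 for TFE3 against EV and 3 for CAMTA1 against EVsub, a fit of the compared groups alone gave 1 for TFE3, 0 for CAMTA1 and 2 for EVsub, and the fold limit gave 0 for CAMTA1. Single libraries left out gave 1 to 4 for TAZ-CAMTA1, 1 to 3 for YAP-TFE3 and 0 to 1 for CAMTA1. For receptors and enzymes the fold limit left 0 for TAZ-CAMTA1, 2 for YAP-TFE3, 6 for YAP5SA, 1 for TFE3, 0 for CAMTA1 and 5 for EVsub. DESeq2 and no filter each gave 2 for CAMTA1, and the compared groups alone gave 5 for EVsub. Single libraries left out gave 3 to 7 for TAZ-CAMTA1, 4 to 9 for YAP-TFE3, 1 to 3 for TFE3 and 1 to 2 for CAMTA1.

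Same-numbered libraries were not shown to be paired: the correlations of their deviations ran from -0.21 to 0.41, and in 0 of 11 comparisons were all above 0.1. A replicate block left all 25 counts within 1.5 times, the 9 genes giving 4, 6, 4 and 7 calls against EV for TAZ-CAMTA1, TAZ4SA, YAP-TFE3 and YAP5SA, 7 in place of 8 for YAP-TFE3 against YAP5SA and 3 in place of 4 for TAZ4SA against YAP5SA; the lost calls were Thbs3 (adjusted p = 0.0575) and Sparcl1 (adjusted p = 0.0517). Levels on library totals moved by more than 1 SD in 12 of 72 cases and levels per kb of the longest transcript in 39 of 72. Per kb of the longest transcript the highest genes in EV were Spp1 (1248 CPM per kb), Thbs2 (709), Sparc (692) and Postn (573). Of 43 called tests of the other named genes, 31 were called under every alternative.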
